A study of Bos taurus with 38 samples.

Results

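The cumulus cells of 9 cattle cumulus-oocyte complexes, numbered 65 to 74 in the labels, were compared by the brilliant cresyl blue (BCB) class of their oocytes. Members were all cumulus libraries with a complex number in that run, 9 of the 38 libraries in the series. The 6 complexes 69 to 74 were BCB positive and the 3 complexes 65, 66 and 68 were BCB negative. All were Bos taurus complexes aspirated from abattoir ovaries, with animal, age and stage of the follicular wave not given. They had no treatment other than the dye and the trypsin and pipetting that separated cumulus cells from oocytes. Each library held the RNA of the group of cumulus cells around 1 oocyte, amplified as cDNA before library preparation, and the oocyte of each complex was sequenced separately. Every BCB negative complex has a lower number than every BCB positive complex, so the class cannot be told apart from whatever else follows the order of the numbers. Nothing in the labels says whether the complexes came from separate animals, and p-values therefore measure only the spread between these libraries.

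Cumulus cells are the granulosa cells that enclose the oocyte. They pass it metabolites and cyclic nucleotides through gap junctions, respond to follicle stimulating hormone, and answer oocyte growth factors of the BMP family. BCB is a blue supravital dye. Growing oocytes lose the colour (BCB negative), while oocytes at the end of growth keep it (BCB positive). The class was read on the oocyte, and the question here was whether the transcript abundance in the surrounding cells differed with it.

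The cumulus libraries differed in size between the classes. The BCB negative libraries held 1650795, 1624128 and 1103200 assigned counts in complexes 65, 66 and 68, and the BCB positive libraries held from 4386946 to 10430148. The classes did not overlap, and the difference in mean log10 total was 0.728 (two-sided exact permutation test with all 84 assignments of 6 and 3 libraries, p = 0.0119, the smallest that the design allows; adjusted p = 0.0179 over 9 library measures). Fewer cells of a type and less RNA per cell cannot be told apart in bulk libraries, and since each was made from a set amount of amplified cDNA, the totals also depend on pooling and sequencing, whose part was not tested. Cumulus and granulosa markers were present in every library: 12 of the 14 markers on the list had a symbol, and all 12 had counts in all 9 libraries. Levels here and below are in CPM (counts scaled to a common library size) after TMM scaling, unless stated otherwise. TMM applies a factor per library that centres the bulk of genes. The summed level of the 12 markers was 20784, 15278 and 17111 CPM in the BCB negative libraries. It ran from 11484 to 28286 CPM in the BCB positive ones (exact permutation test, p = 0.988). The median log2 fold change of these markers, BCB positive minus negative, was 0.21 with TMM scaling and 0.94 with library totals alone. The comparison of their levels therefore depends on the scaling.

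**Figure D1:**
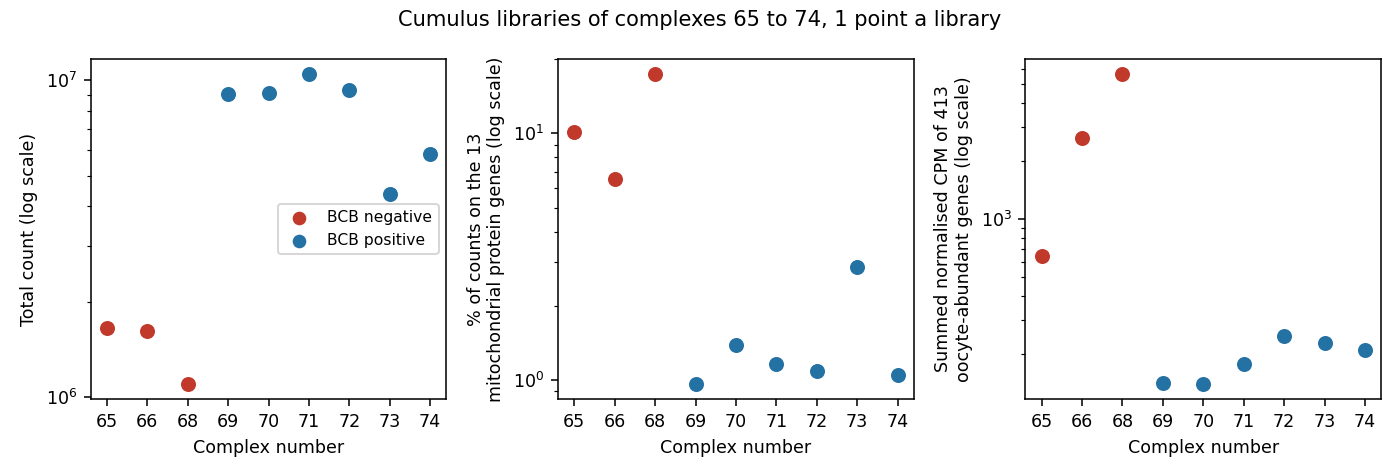
Total count, percent of counts on the 13 mitochondrial protein genes, and summed normalised CPM of 413 oocyte-abundant genes (vertical axes, all on log scales) in each of the 9 cumulus libraries, ordered by complex number (horizontal axes). In each plot the 3 BCB negative libraries lie on the other side of all 6 BCB positive libraries, with totals up to 1650795 against at least 4386946.

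Of 12892 genes tested (over 2 CPM in 3 or more of the 9 libraries), 169 were called at a false discovery rate (FDR) under 0.01 with edgeR's quasi-likelihood test, which is 1.31% of the genes. Transcript abundance was lower in BCB positive cumulus cells for 165 genes (1.28%) and higher for 4 (0.031%), and 2075 genes (16.1%) had an unadjusted p under 0.05. The normalised CPM of the classes did not overlap for any of the 165 falls or 4 rises, against 5.11% of all genes tested with every BCB positive library lower and 5.03% with every one higher. Called genes are chosen for their separation, and 71 of the 165 falls (86 of all genes tested) passed the filter through the BCB negative libraries alone, so this is a description only. The median log2 fold change of all genes tested was 0.01 with TMM scaling and 0.77 when only library totals were used. With library totals alone 2218 genes were called higher and 169 lower, so fold changes are given relative to the bulk of genes. The count also rested on single BCB negative libraries: 80 genes were called without complex 65, 60 without complex 66 and 22 without complex 68, while a fit with complexes 66 and 68 both left out had 1 BCB negative library, with no replicate, and called no gene (edgeR, 1787 at an unadjusted p under 0.05). With the logarithm of the total as a covariate no gene was called (edgeR, 186 at an unadjusted p under 0.05), but the total separates the classes fully and that fit cannot tell them apart.

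**Figure D2:**
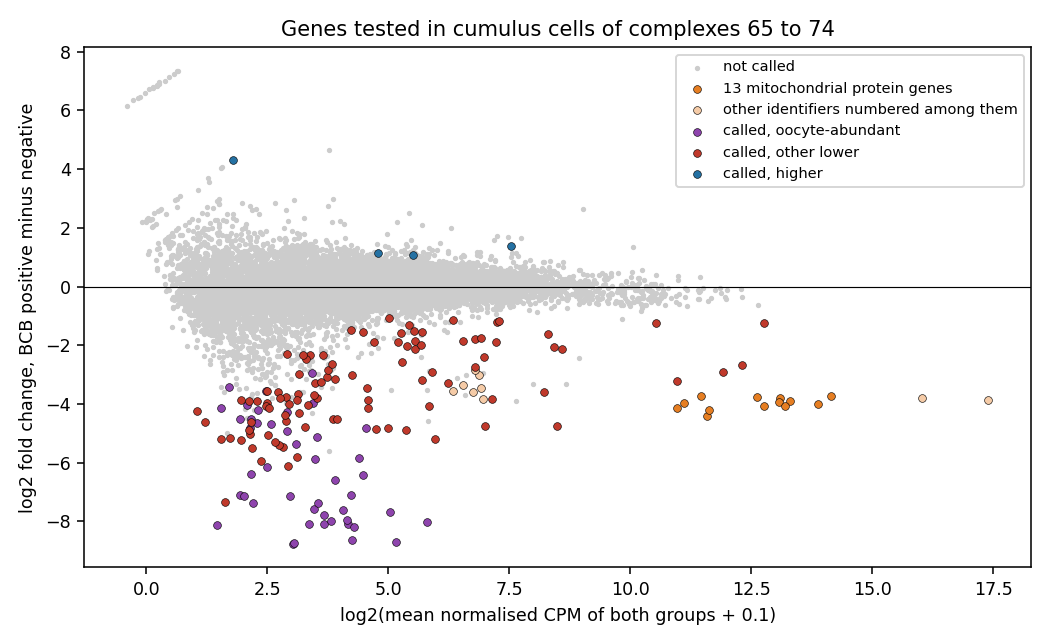
The log2 fold change of each gene tested (vertical axis, BCB positive minus BCB negative) against the log2 mean normalised CPM of both groups plus 0.1 (horizontal axis). Called genes are coloured by class, and 165 of the 169 lie below 0; the 13 mitochondrial protein genes form a group at the right between -4.42 and -3.72.

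The 13 protein genes of the mitochondrial genome included the most abundant named genes called, and all 13 fell in BCB positive cumulus cells. They encode subunits of the respiratory chain and of ATP synthase that are made inside the organelle. Their share of the counts was 10.2%, 6.52% and 17.4% in the BCB negative libraries of complexes 65, 66 and 68. In the BCB positive libraries it ran from 0.966% to 2.86% with a median of 1.13%, below every BCB negative library (exact permutation test, p = 0.0119; adjusted p = 0.0179). The log2 fold changes lay between -4.42 for ND3 and -3.72 for COX2, with a median of -3.98 against 0.01 for all genes tested.

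COX1, the catalytic subunit of cytochrome oxidase, had 38077, 10972 and 52350 CPM in complexes 65, 66 and 68 and from 1619 to 4969 CPM (median 2112) in BCB positive complexes (log2 fold change -3.72 ± 0.45 SE, FDR = 0.000471). ND6, a subunit of complex I and the protein gene on the other strand of the mitochondrial genome, had 5349, 2926 and 9775 CPM against 201 to 714 CPM (median 254; log2 fold change -4.22 ± 0.44 SE, FDR = 0.000397). CYTB, the cytochrome b subunit of complex III, had 10731, 4950 and 32824 CPM against 700.0 to 2583 CPM (median 974; log2 fold change -3.79 ± 0.55 SE, FDR = 0.00282). For each of these genes complex 66 was the lowest and complex 68 the highest of the BCB negative libraries, and complex 73 was the highest of the BCB positive ones. Without complex 68 the calls of ATP6, COX1, CYTB, ND1, ND2, ND4 and ND4L were lost, with FDR up to 0.0257, and those of CYTB and ND4L also without some BCB positive libraries, while those of ATP8, COX2, COX3, ND3, ND5 and ND6 held in all 9 fits that left out 1 library each.

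In raw counts, before any scaling, the 13 genes together had 167686, 105827 and 191428 counts in the BCB negative libraries and from 61243 to 126377 in the BCB positive libraries, so the groups overlapped (exact permutation test, p = 0.0714). All other counts, leaving out also the remaining identifiers numbered among the 13, were 1021374, 1177385 and 488199 in the BCB negative libraries and from 3951353 to 10031358 in the BCB positive libraries (exact permutation test, p = 0.0119). Raw mitochondrial counts thus overlapped between the classes, while the counts on other genes were fewer in every BCB negative library. Among those remaining identifiers, ENSBTAG00000043570 and ENSBTAG00000043567, which have no symbol here, took 27.6%, 20.8% and 38.0% of all counts in complexes 65, 66 and 68 and from 2.26% to 6.89% in the BCB positive libraries. In all, 9 further identifiers of that number range were called lower; their places in the genome were not looked up.

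No nuclear gene of the respiratory chain was called. Of 73 nuclear subunit genes on the list 22 had a symbol and were tested, and their median log2 fold change was 0.09. NDUFV3, an accessory subunit of complex I, was at 64.6, 63.7 and 43.8 CPM in complexes 65, 66 and 68 and from 54.0 to 96.1 CPM in BCB positive complexes (log2 fold change 0.52 ± 0.22 SE, FDR = 0.264). UQCRC2, a core subunit of complex III, had a log2 fold change of 0.42 ± 0.22 SE (FDR = 0.365). The 29 mitochondrial ribosomal protein genes tested, nuclear genes whose products translate the 13, had a median of 0.23 with none called. MRPL36 came nearest, with 13.1, 8.31 and 11.8 CPM against 20.2 to 31.6 CPM (log2 fold change 1.23 ± 0.27 SE, FDR = 0.0265), and its classes did not overlap.

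The named falls of largest log2 fold change were mostly genes abundant in oocytes. ZP3, ZP2, ZGLP1, TTC24, TMCC3, COL1A2, ADAMTS12, FAT3, ISL1 and DKK3 passed the filter through the 3 BCB negative libraries alone, so that each had to differ to be tested, no fit without 1 of these libraries could be made, and their FDR is no support; their levels are given as a description. ZP3, a zona pellucida glycoprotein that the oocyte secretes, had 6.11, 54.0 and 45.5 CPM in the BCB negative cumulus libraries of complexes 65, 66 and 68 and from 0 to 0.417 CPM (median 0.127) in BCB positive ones (log2 fold change -7.97 ± 0.73 SE, FDR = 0.000231). ZP2, its partner in the zona, had 5.24, 19.4 and 43.8 CPM against 0 to 0.834 CPM (median 0.0459; log2 fold change -7.37 ± 0.95 SE, FDR = 0.000677). In both genes complex 65 stood well below complexes 66 and 68 but above every BCB positive library. ZGLP1, a GATA-like zinc finger regulator of germ cells, had 3.49, 8.31 and 11.8 CPM against 2 counts in all BCB positive libraries together, a ratio of 211 with a 95% counting interval from 52.1 to 1845. TTC24, a tetratricopeptide repeat gene, had 3.49, 5.54 and 6.73 CPM and no count in the BCB positive libraries, at least 97.8-fold higher in BCB negative cumulus cells when set against 3 counts over that group. ACCSL had 13.97, 80.3 and 236 CPM against 0 to 2.92 CPM (log2 fold change -8.02 ± 1.15 SE, FDR = 0.00574), and 7 of the 9 fits that left out a library lost its call. TMCC3, a membrane coiled-coil gene, had 4.37, 8.31 and 30.3 CPM against 0.140 to 0.626 CPM (log2 fold change -4.92 ± 0.66 SE, FDR = 0.000766).

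These genes were abundant in the oocytes of the same complexes, with mean CPM (per library total) of 1823 for ZP3, 1967 for ZP2, 3587 for ACCSL, 544 for TMCC3, 217 for ZGLP1 and 119 for TTC24 over 9 oocyte libraries. To follow such transcripts without the 9 libraries, 413 oocyte-abundant genes were chosen in the other 10 complexes, with a mean of at least 50 CPM in oocytes and at least 100 times the level in BCB positive cumulus cells, a rule set after these data had been seen. Their summed level was 645, 2623 and 5647 CPM in the BCB negative cumulus libraries of complexes 65, 66 and 68 and from 140.03 to 248.5 CPM in the BCB positive ones (exact permutation test, p = 0.0119; adjusted p = 0.0179). Complex 68 had the most, complex 65 the least of the BCB negative libraries, and the classes did not overlap. In the oocytes of the same complexes the sum was from 89130 to 107130 CPM. Of the 413 genes 91 were tested and 45 were called lower in BCB positive cumulus cells, but 41 of the 45 passed the filter through the BCB negative libraries alone, so that count is no support. With the 413 genes left out before normalization 107 genes were called, 1 higher and 106 lower, all among the 169.

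Few markers of other cells had a symbol. The oocyte list had 3 of 20 markers with a symbol (ZP2, ZP3 and DAZL), summing to 11.4, 74.8 and 92.6 CPM in BCB negative libraries and from 0.0917 to 1.67 CPM in BCB positive ones; DAZL was at 0 in 3 of the 9 libraries. The theca and stroma list had 1 of 10, the collagen gene COL1A2, tested through the BCB negative libraries alone, at 4.37, 4.85 and 35.4 CPM against 0 to 0.417 CPM (log2 fold change -6.12 ± 0.87 SE, FDR = 0.00117). The endothelium list had 2 of 7, TEK and VWF, summing to 4.37, 12.5 and 48.8 CPM against 0.932 to 4.91 CPM, which overlapped; VWF did not pass (FDR = 0.0913) and TEK was not tested. No marker of leukocytes and blood had a symbol. COL1A2 was also found in the oocyte libraries, at a mean of 9.56 CPM (per library total). The oocyte range, 6.02 to 15.1 CPM, lay above the cumulus libraries of complexes 65 and 66 and below that of complex 68. The source of COL1A2 in the cumulus libraries was not tested. The part of other cells in the remaining falls was not tested, and leaving out the 413 genes cannot test it. Outside the oocyte-abundant genes and the mitochondrial number range there were 98 falls. Of these 20 (20.4%) were at least 10-fold higher in oocytes than in BCB positive cumulus cells, against 7.21% of all genes tested. Falls were chosen for low levels in BCB positive cumulus cells, so that share is a description only.

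**Figure D3:**
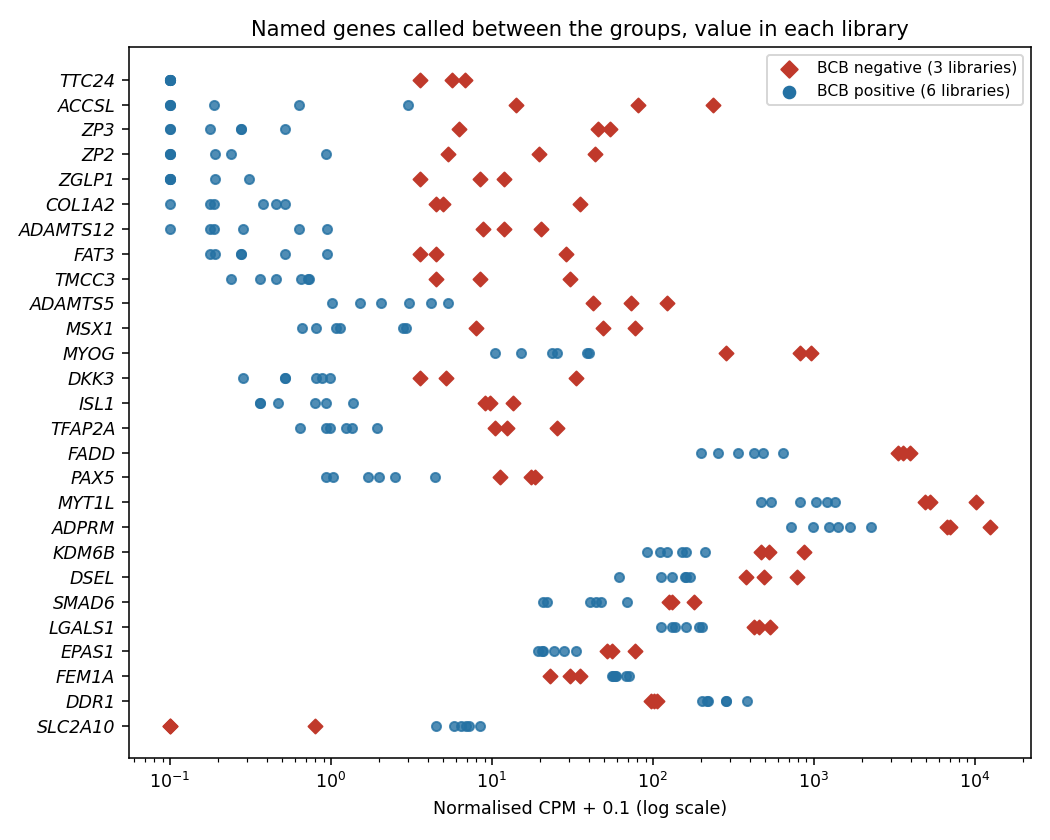
Normalised CPM plus 0.1 (horizontal axis, log scale) of the named genes called outside the mitochondrial genes (rows, ordered by log2 fold change) in each of 3 BCB negative libraries (diamonds) and 6 BCB positive libraries (circles). The diamonds lie to the right of all circles for every gene from TTC24 down to EPAS1 and to the left for FEM1A, DDR1 and SLC2A10.

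Several regulators of transcription fell in BCB positive cumulus cells. A list of 10 that the study chose on these samples, and which is no independent evidence of its direction, had 6 members lower, none higher and 4 that did not pass. Of all genes tested 1.28% were called lower, and of the 4539 with a symbol 63 were. The median log2 fold change of the list was -3.17 against 0.01 for all genes tested and 0.18 for the 4539 tested genes with a symbol. MYOG, the muscle regulator myogenin, had the highest level, with 818, 286 and 958 CPM in complexes 65, 66 and 68 and from 10.4 to 40.2 CPM (median 24.4) in BCB positive complexes (log2 fold change -4.76 ± 0.46 SE, FDR = 0.000397). Its call held in all 9 fits that left out 1 library, and its mean level in the oocytes was 4.91 CPM. MSX1, a homeobox repressor, had 7.86, 49.2 and 77.4 CPM against 0.561 to 2.84 CPM (log2 fold change -4.83 ± 0.64 SE, FDR = 0.00111). MSX1 was among the oocyte-abundant genes, with a mean of 1052 CPM in oocytes, and its call was lost without complex 66 or 68, with FDR up to 0.0209.

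The homeobox gene ISL1, also tested through the BCB negative libraries alone, had 9.61, 9.00 and 13.5 CPM against 0.265 to 1.26 CPM (log2 fold change -4.13 ± 0.58 SE, FDR = 0.00103), with a mean of 33.8 CPM in oocytes. TFAP2A, an AP-2 factor, had 12.2, 10.4 and 25.2 CPM against 0.543 to 1.82 CPM (log2 fold change -3.85 ± 0.49 SE, FDR = 0.000542; FDR = 0.0108 without complex 68). PAX5, known from B cells, had 17.5, 11.1 and 18.5 CPM against 0.826 to 4.35 CPM (log2 fold change -2.98 ± 0.53 SE, FDR = 0.00601). The classes did not overlap for these 3 genes. EPAS1, the hypoxia-inducible factor HIF-2 alpha, was lower by less, with 51.5, 55.4 and 77.4 CPM against 19.2 to 33.3 CPM (log2 fold change -1.32 ± 0.23 SE, FDR = 0.00477). The mean level in oocytes was 285 CPM for EPAS1, 1.72 CPM for TFAP2A and 0.579 CPM for PAX5. The calls of PAX5 and EPAS1 were both lost when any 1 of complexes 65, 66, 68, 70, 71 and 73 was left out, and that of PAX5 also without complex 69, with FDR up to 0.0594. HOXA9 (log2 fold change -3.37 ± 0.68 SE, FDR = 0.0164), LEF1 (-2.77 ± 0.64 SE, FDR = 0.0369; an oocyte-abundant gene at a mean of 242 CPM in oocytes), ETV1 (-2.21 ± 0.66 SE, FDR = 0.111) and ETS2 (-0.36 ± 0.82 SE, FDR = 0.875) did not pass.

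ADAMTS5, a protease that cleaves the proteoglycans aggrecan and versican, had 73.4, 42.2 and 123 CPM in complexes 65, 66 and 68 and from 0.917 to 5.21 CPM (median 2.44) in BCB positive complexes (log2 fold change -4.89 ± 0.47 SE, FDR = 0.000272). The classes did not overlap, the mean in oocytes was 0.879 CPM, and the call held in all 9 fits without 1 library. ADAMTS12, of the same family and tested through the BCB negative libraries alone like FAT3, had 8.73, 11.8 and 20.2 CPM against 0 to 0.842 CPM (log2 fold change -5.46 ± 0.73 SE, FDR = 0.000739). FAT3, an atypical cadherin, had 4.37, 3.46 and 28.6 CPM against 0.0776 to 0.842 CPM (log2 fold change -5.31 ± 0.86 SE, FDR = 0.00311). Both were higher in the oocyte libraries than in BCB positive cumulus libraries, at means of 34.6 and 36.4 CPM.

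The Wnt list had 14 of 49 genes tested, with 1 lower, none higher and a median log2 fold change of -0.04. The fall was DKK3, a secreted protein of the Dickkopf family that was tested through the BCB negative libraries alone, at 33.2, 3.46 and 5.05 CPM against 0.183 to 0.883 CPM (median 0.563; log2 fold change -4.57 ± 0.69 SE, FDR = 0.00185). Here complex 65 was the highest of the BCB negative libraries, unlike the zona genes, and the mean in oocytes was 91.01 CPM. SFRP1, a secreted Wnt antagonist that was also on the study's list of negative BMP regulators, was at 0, 6.92 and 8.42 CPM against 0.917 to 2.79 CPM (log2 fold change -1.63 ± 0.74 SE, FDR = 0.302). The dishevelled gene DVL3 was at a log2 fold change of 0.73 ± 0.27 SE (FDR = 0.195), and beta-catenin, CTNNB1, at -0.06 ± 0.20 SE (FDR = 0.920).

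In BMP, activin and TGF-beta signaling 9 of 35 listed genes were tested, 1 was called lower and none higher, and the median log2 fold change was -0.52. SMAD6, an inhibitory SMAD that blocks BMP receptors, had 132, 125 and 180 CPM in complexes 65, 66 and 68 and from 20.6 to 69.4 CPM (median 42.5) in BCB positive complexes (log2 fold change -1.84 ± 0.33 SE, FDR = 0.00847). The classes did not overlap, but the call was lost without any 1 of complexes 65, 66, 68, 69, 70 and 73, with FDR up to 0.102. SMAD7, the other inhibitory SMAD, was at 2.62, 6.23 and 1.68 CPM against 0.834 to 3.93 CPM (log2 fold change -1.16 ± 0.67 SE, FDR = 0.420), and the pseudoreceptor BAMBI at a log2 fold change of -0.52 ± 0.56 SE (FDR = 0.685). ID2, a BMP target, was at 59.4, 107 and 45.5 CPM against 93.1 to 325 CPM (log2 fold change 1.19 ± 0.43 SE, FDR = 0.200). Of the study's list of 4 negative BMP regulators (SMAD6, SMAD7, BAMBI and SFRP1), chosen on these samples and no independent evidence, 1 passed, and the median was -1.40. The medians of the EGF, BMP, Wnt and cytosolic ribosomal lists were below 0 with TMM scaling and at 0.69, 0.22, 0.79 and 0.49 with library totals alone.

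The 6 falls with a symbol and the highest mean CPM over all 9 libraries, outside the mitochondrial genes and chosen after their values were seen, were of varied function. ADPRM, a manganese-dependent ADP-ribose hydrolase, had 7059, 6686 and 12440 CPM against 721 to 2249 CPM (log2 fold change -2.67 ± 0.32 SE, FDR = 0.000418). MYT1L, a zinc finger factor known from neurons, had 5292, 4891 and 10118 CPM against 471 to 1349 CPM (log2 fold change -2.91 ± 0.34 SE, FDR = 0.000403). FADD, the adaptor of death receptors such as FAS, had 3594, 3934 and 3321 CPM against at most 642 CPM (median 381.5) (log2 fold change -3.21 ± 0.30 SE, FDR = 0.000231). Complex 65, which was the lowest of the BCB negative libraries for the zona genes, stood beside complex 66 for ADPRM and MYT1L, and FADD varied little among the 3. KDM6B, a histone H3K27 demethylase, had 525.8, 471 and 869 CPM against 91.5 to 210 CPM (log2 fold change -2.14 ± 0.26 SE, FDR = 0.000426). DSEL, a dermatan sulfate epimerase-like gene, had a log2 fold change of -2.06 ± 0.29 SE (FDR = 0.00131), and LGALS1, the lectin galectin-1, one of -1.60 ± 0.20 SE (FDR = 0.000513). The calls of ADPRM, DSEL and KDM6B were lost without complex 68, with FDR up to 0.0324, and those of MYT1L, FADD and LGALS1 held in all 9 such fits.

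The receptor that FADD serves, FAS, was at 36.7, 24.9 and 38.7 CPM against 15.4 to 23.4 CPM, which did not overlap, and did not pass (log2 fold change -0.74 ± 0.24 SE, FDR = 0.143). No gene of the apoptosis list passed among the 9 tested, and the median log2 fold change was 0.31. Other falls with a symbol, listed by name only, included the ephrin receptor EPHB2, the growth factor FGF9, the complement gene C7, the PACAP receptor ADCYAP1R1, the glutathione transferase GSTM1, the RNA-binding genes FMR1 and MBNL3, the zinc finger genes ZBTB7A, ZBTB7C, TSHZ1 and TRPS1, and the kinase SIK3. Of all 165 falls 71 passed the filter through the BCB negative libraries alone, and which of these genes did is not given here. In all, 63 of the 165 falls had a symbol here.

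Of the 165 falls 51 had more raw counts in every BCB negative library than in any BCB positive library in spite of the smaller totals, 90 overlapped, and 24 had fewer. Among all genes tested 0.396% had more raw counts in every BCB negative library and 91.4% had fewer.

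The 4 genes higher in BCB positive cumulus cells were DDR1, FEM1A, SLC2A10 and ENSBTAG00000013895, which has no symbol here. DDR1, a receptor tyrosine kinase for collagen, had 101, 97.6 and 106 CPM in complexes 65, 66 and 68 and from 203 to 385 CPM (median 253) in BCB positive complexes (log2 fold change 1.38 ± 0.23 SE, FDR = 0.00406). FEM1A, a substrate receptor of a ubiquitin ligase, had 30.6, 22.9 and 35.4 CPM against 55.3 to 71.03 CPM (log2 fold change 1.08 ± 0.20 SE, FDR = 0.00975). The glucose transporter gene SLC2A10, which passed the filter through the BCB positive libraries alone so that its FDR is no support, had 1 count over the 3 BCB negative libraries and from 4.42 to 8.35 CPM in the BCB positive ones, a ratio of 20.3 with a 95% counting interval from 3.62 to 803. ENSBTAG00000013895 had a log2 fold change of 1.16 (FDR = 0.00780). No named rise held in all fits without 1 library: DDR1 was lost in 4 of the 9 (complexes 65, 66, 68 and 70), SLC2A10 in 8 (all but complex 71) and FEM1A in all 9, with FDR up to 0.0850. Among rises with a symbol that missed the threshold, 3 had the lowest p. They were the alanyl-tRNA synthetase gene AARS1 (log2 fold change 1.06 ± 0.21 SE, FDR = 0.0131), IPO13, an importin (1.23 ± 0.24 SE, FDR = 0.0141), and CDIPT, a phosphatidylinositol synthase (1.51 ± 0.30 SE, FDR = 0.0153). The classes did not overlap for any of these 3, which is a description only since they were chosen by p. Of all genes tested 5.03% had every BCB positive library higher.

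Of 32 glycolysis and pentose phosphate genes 18 were tested and none was called, with a median log2 fold change of 0.24. The aldolase gene ALDOC was at 284, 200 and 194 CPM against 198 to 508 CPM (log2 fold change 0.64 ± 0.26 SE, FDR = 0.251). PGD, the third enzyme of the pentose phosphate pathway, was at a log2 fold change of 0.43 ± 0.29 SE (FDR = 0.504).

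Genes of granulosa function did not pass the threshold in either direction. All 23 tested of 31 genes for gonadotropin receptors, steroid synthesis and granulosa identity were uncalled, with a median log2 fold change of 0.13. The follicle stimulating hormone receptor FSHR was at 0.35 ± 0.23 SE (FDR = 0.492), aromatase, CYP19A1, at 0.54 ± 0.42 SE (FDR = 0.561), and follistatin, FST, at -0.09 ± 0.22 SE (FDR = 0.886). STAR, which carries cholesterol into mitochondria, was at 3.49, 11.1 and 8.42 CPM against 1.32 to 3.79 CPM (log2 fold change -1.50 ± 0.50 SE, FDR = 0.154), and was itself abundant in the oocyte libraries with a mean of 567 CPM. FDXR, the reductase that feeds electrons to the steroid-making cytochromes, was at 201, 159 and 227 CPM against 231 to 329 CPM without overlap (log2 fold change 0.54 ± 0.19 SE, FDR = 0.195). In the EGF network 5 of 21 genes were tested and none was called; EGFR was at 0.26 ± 0.23 SE (FDR = 0.603) and MAPK3 at -0.51 ± 0.32 SE (FDR = 0.462).

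In gap junctions and cyclic nucleotide control 9 of 36 genes were tested, with none called and a median log2 fold change of 0.11. NPR1, a natriuretic peptide receptor that makes cyclic GMP, came nearest, with 6.11, 8.31 and 15.2 CPM against 1.79 to 3.30 CPM without overlap (log2 fold change -1.88 ± 0.44 SE, FDR = 0.0362). The main cumulus connexin, GJA1, was at -0.48 ± 0.26 SE (FDR = 0.385) and the kinase subunit PRKACB at 0.37 ± 0.19 SE (FDR = 0.365). For cholesterol synthesis 7 of 24 genes were tested and none was called, with LSS at 0.56 ± 0.22 SE (FDR = 0.220) and MVD at 0.41 ± 0.23 SE (FDR = 0.405). In the cell cycle list 17 of 34 were tested and none was called; CCNB1, a mitotic cyclin that oocytes store, was at 47.2, 57.5 and 210 CPM against 24.6 to 45.4 CPM (log2 fold change -1.47 ± 0.39 SE, FDR = 0.0848), and MCM4 at 0.62 ± 0.26 SE (FDR = 0.261). The 16 cytosolic ribosomal protein genes tested had a median of -0.26 and none called, with RPL5 at -0.65 ± 0.23 SE (FDR = 0.179) and RPL9 at -0.48 ± 0.23 SE (FDR = 0.326).

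Stress and early response genes were not called. Of 30 immediate early genes 16 were tested, none was called, and the median log2 fold change was 0.69, against 0.18 for tested genes with a symbol. CITED2, a transcriptional co-regulator, was at 20.1, 36.0 and 48.8 CPM against 47.9 to 91.5 CPM (log2 fold change 1.01 ± 0.30 SE, FDR = 0.118), and ZFP36, which promotes decay of short-lived mRNAs, at 71.6, 107 and 194 CPM against 161 to 505 CPM (1.15 ± 0.40 SE, FDR = 0.179). Of 26 heat shock and unfolded protein genes 11 were tested and none was called, with a median of 0.18. The inducible chaperone HSPA1A was at 67.2, 58.9 and 133 CPM against 68.01 to 506 CPM (log2 fold change 1.67 ± 0.71 SE, FDR = 0.289), and its cochaperone BAG3 at 0.80 ± 0.43 SE (FDR = 0.393).

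Of 34 zinc and amino acid transporter genes 16 were tested and none was called, with a median log2 fold change of 0.45. SLC7A5, the light chain of the large neutral amino acid transporter, was at 1.75, 4.16 and 13.5 CPM against 11.4 to 55.7 CPM (log2 fold change 2.22 ± 0.75 SE, FDR = 0.179). The zinc importer SLC39A3 was at 6.11, 4.85 and 3.37 CPM against 8.91 to 14.5 CPM without overlap (log2 fold change 1.19 ± 0.36 SE, FDR = 0.117). The study's list of 4 transport genes, chosen on these samples and no independent evidence, had a median of 0.53 and none called; besides SLC7A5 it held the potassium channel KCNH2 (0.50 ± 0.19 SE, FDR = 0.208) and the zinc transporters SLC39A11 (0.54 ± 0.37 SE, FDR = 0.502) and SLC39A13 (0.52 ± 0.23 SE, FDR = 0.284). In simulated counts for the same libraries the test recovered 130 of 200 genes changed 4-fold and 0 of 200 changed 2-fold.

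**Figure D4:**
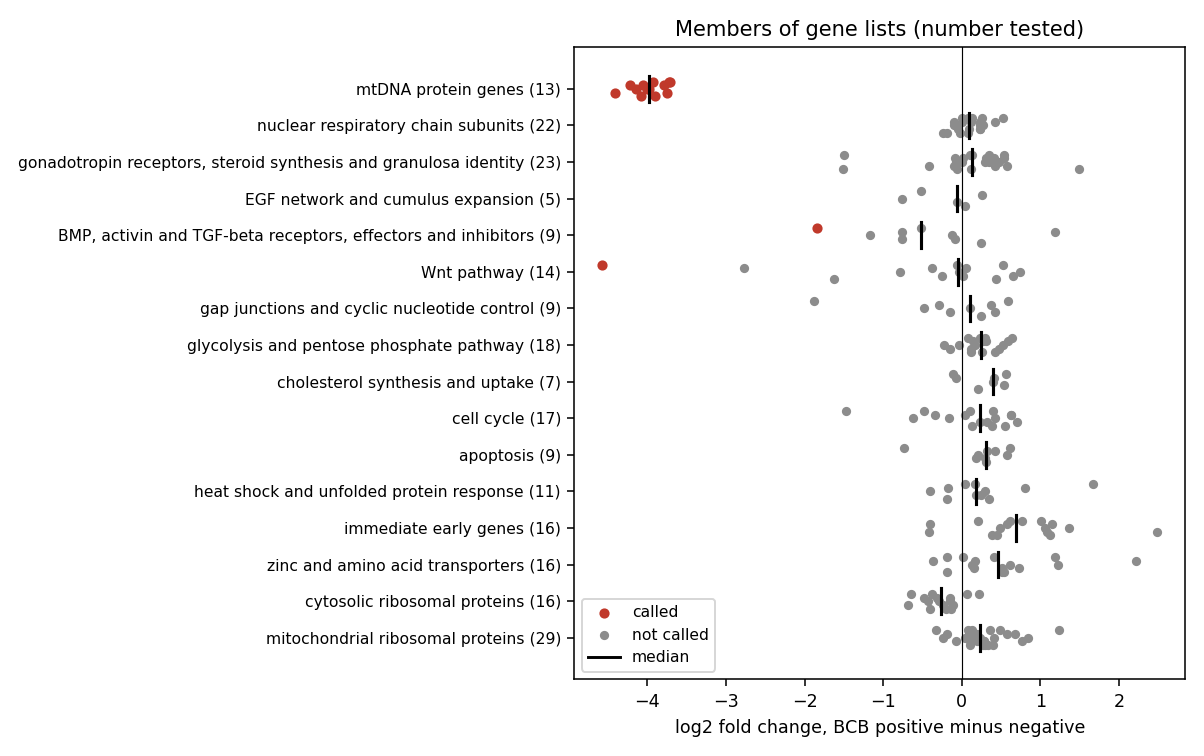
The log2 fold change (horizontal axis, BCB positive minus BCB negative) of each tested member of 16 gene lists (rows, number tested in brackets), with called members in red, others in grey and the median of each list as a bar. The 13 mitochondrial protein genes lie between -4.42 and -3.72, and outside them the called members are SMAD6 at -1.84 and DKK3 at -4.57.

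The same contrast in the other 10 cumulus libraries, 3 BCB positive and 7 BCB negative, shares no library with the 9. There no gene of 13034 was called (edgeR, 1477, or 11.3%, at an unadjusted p under 0.05, 4 at FDR under 0.05, or 0.0307%; DESeq2 called 157). Of the 165 falls 116 were tested there, 112 had a log2 fold change below 0, the median was -1.51 and 69 had an unadjusted p under 0.05, all of them below 0. Among all genes tested there 52.2% were below 0, and over the genes tested in both sets the median was -0.02. DKK3 had the lowest FDR of the falls there, with a log2 fold change of -3.93 ± 0.48 SE (FDR = 0.0122). Of the 13 mitochondrial protein genes all were below 0, with a median of -2.36 and 11 at an unadjusted p under 0.05, and their share of counts overlapped between the classes (BCB positive 1.91% to 2.50%, BCB negative 1.17% to 13.5%). The 413 oocyte-abundant genes summed to 182 to 729 CPM (per library total) in BCB negative and 122 to 172 CPM in BCB positive cumulus libraries, although the rule for these genes used the same BCB positive libraries. Totals overlapped, at 1772144 to 8013318 in BCB negative and 3585944 to 5305541 in BCB positive libraries. The BCB negative complexes 6, 86 and 91 had the smallest totals and the highest mitochondrial shares (8.66%, 11.2% and 13.5%), while the BCB negative complex 89 had the largest total and the lowest share (1.17%) and complex 88 lay within the BCB positive range in both (4539428 counts, 2.06%). The part of these measures in the log2 fold changes was not tested. The zona genes and TTC24, ZGLP1, COL1A2, ADAMTS12 and FAT3 did not reach the filter there.

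The difference of the BCB effect between complexes 65 to 74 and the others was tested on 12573 genes, and none was called (edgeR, 1378, or 11%, at an unadjusted p under 0.05, 6, or 0.0477%, at FDR under 0.05; DESeq2 called 29). Of the 116 falls tested 58 had an unadjusted p under 0.05 and 1 an FDR under 0.05. These falls were chosen for their effect in complexes 65 to 74, whose libraries also enter this difference. That count is therefore no support for a difference between the sets. ENSBTAG00000013895, a rise here, was at -0.48 in the others (FDR of the difference 0.0364). SLC2A10 was at -0.13 in the others. CITED2 was at -1.38 (difference 2.39 ± 0.47 SE, FDR = 0.0632) and HSPA1A at -3.82 (difference 5.49 ± 1.22 SE, FDR = 0.137). For these genes the 2 sets of libraries had log2 fold changes of opposite sign, but no difference passed at 0.01.

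**Figure D5:**
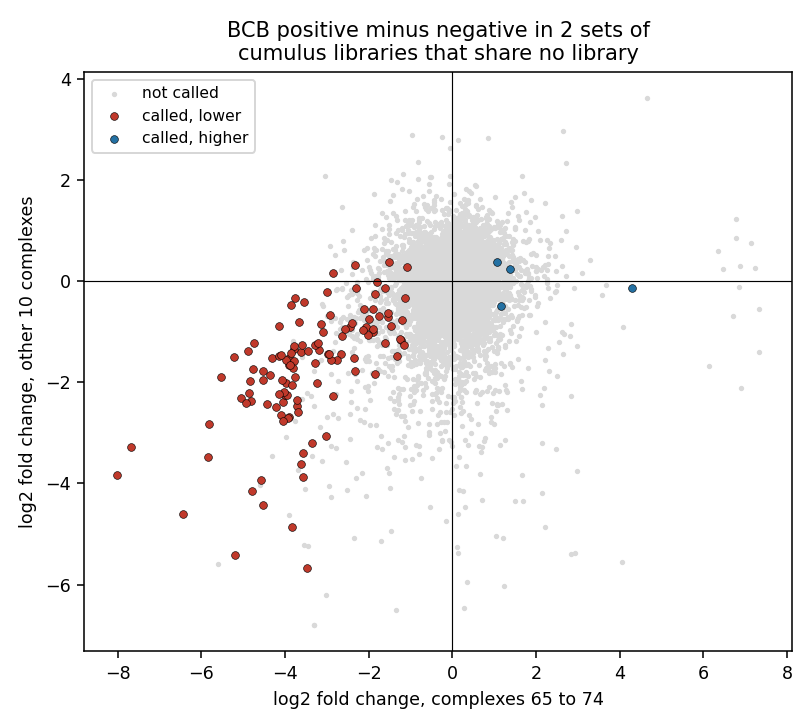
The log2 fold change of each gene in the other 10 complexes (vertical axis) against that in complexes 65 to 74 (horizontal axis), with genes called in complexes 65 to 74 in colour. Of 116 called falls tested in both, 112 lie below 0 on both axes; of the 4 called rises, 2 lie below 0 in the other complexes.

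In the oocytes of complexes 65 to 74 no gene of 13267 was called between the classes (edgeR, 2759, or 20.8%, at an unadjusted p under 0.05, 22, or 0.166%, at FDR under 0.05; DESeq2 called 506). The difference of effect between cumulus cells and oocytes was called for 124 of 10906 genes (1.14%), 1 (0.00917%) with a higher and 123 (1.13%) with a lower effect in cumulus cells, and for 53 genes, all lower, when the complex was added as a replicate block. The count of 124 includes 98 of the 165 cumulus falls, among them all 45 oocyte-abundant ones. Of the 165 falls 71 passed the cumulus filter through the BCB negative libraries alone, 41 of them oocyte-abundant. All 165 were chosen in the same cumulus libraries, so the count is no support for them. In the oocytes themselves the log2 fold change was -0.24 for ZP3 and -0.11 for DKK3. EPAS1 differed by -1.90 on the log2 scale (FDR = 0.000375; 0.0104 with the block) and was at 0.52 in the oocytes (FDR = 0.106).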

How the data were processed

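Single cattle oocytes and their cumulus cells were sequenced as amplified cDNA. The authors aligned reads to ARS-UCD1.2 with HISAT2 2.1.0 and assigned them to genes with featureCounts 1.6.0 (versions from the submitters' processing notes); duplicates were removed. The deposited values are raw counts per gene, whole numbers without normalization. Groups came from the labels. Symbols came from the supplementary tables, which name 4539 of the 12892 tested genes and hold mostly genes that ranked high in the study's own tests; other genes keep their identifiers. No sequence is shown. Columns of the study's own fold changes and p-values were not used.

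edgeR 4.0.16 (R 4.3.3; TMM, robust quasi-likelihood test, Benjamini-Hochberg over all tested genes) compared BCB positive with BCB negative at FDR under 0.01, where the study used a likelihood-ratio test and DESeq2 together; DESeq2 1.42.0 served as an alternative. TMM factors were 0.694, 0.889 and 0.538 for complexes 65, 66 and 68 and 1.09 to 1.26 for the BCB positive libraries. Exact permutation tests over all splits compared library-level measures. Counting intervals (scipy 1.17.1) and floors of 3 counts cover counting error only. No 2 libraries were alike enough to be 1 library (highest correlation 0.970). Oocyte and cumulus libraries pair because they come from the same complex; their deviations correlated between -0.047 and 0.13.

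Named genes were the 12 largest called rises and falls with a symbol, a mean of at least 5 CPM in the higher group and no overlap (rises filled to 6 by lowest p), the 5 most abundant called in each direction, the 2 members of lowest p of each list and members described for their role, DKK3, the 3 lists of the study and the mitochondrial protein genes. 1 gene of the rule is not reported here. Members, lists and rules were chosen with earlier results of these data known. Alternatives were other scalings, filters, tests and thresholds, and leaving out libraries or gene classes, 3 of them (the 413 oocyte-abundant genes, the identifiers numbered among the mitochondrial genes, complexes 66 and 68) added after seeing the data. The test was tried on simulated counts. Figures used matplotlib 3.10.9.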

Additional observations from a re-analysis of the deposited data

Results flagged for a closer look

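Of 90 values tested for a library far from the others among the 6 BCB positive cumulus libraries, 24 had one by Dixon's criterion, which chance meets in about 1 of 20 groups. Complex 73, the smallest BCB positive library, was the high one for 2.86% of counts on the 13 mitochondrial protein genes, for 6.89% on the 2 identifiers without a symbol, and in normalised CPM for ACCSL (2.92), ATP6 (1841), ATP8 (541), COX1 (4969), COX2 (787), COX3 (2564), CYTB (2583), ENSBTAG00000043567 (18637), ENSBTAG00000043570 (44440), ND1 (1780), ND2 (2779), ND3 (548), ND4 (4098), ND4L (522), ND5 (2458), ND6 (714) and ZP2 (0.834). These values share 1 library and are not independent, and their cause was not tested. Complex 72 was high for BAK1 (42.5 CPM), ID2 (325 CPM) and ZFP36 (505 CPM), complex 71 was low for NDUFV3 (54.0 CPM), and complex 74 was high for SMAD7 (3.93 CPM).

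For 32 of the 81 named genes the BCB effect differed between cumulus cells and oocytes of the same complexes at FDR under 0.01 (edgeR, interaction contrast, without the complex as a block). Over all genes tested in both compartments 1.14% did. Of the 81 named genes 42 were called in the same cumulus libraries that enter this difference, so the count of 32 is no support. With the complex as a replicate block 9 of the 32 passed (ADAMTS12, COX2, FAT3, ISL1, TMCC3, TTC24, ZGLP1, ZP2 and ZP3) and 23 did not, with all 32 differences still below 0. Of the 9, all but COX2 passed the cumulus filter through the BCB negative libraries alone. So did COL1A2 and DKK3 among the 23, and the differences of all these genes are no support. The differences on the log2 scale, cumulus minus oocyte, were below 0 in all 32: ACCSL (-7.75), ADAMTS12 (-5.21), ADPRM (-3.03), ATP6 (-4.10), ATP8 (-4.82), COL1A2 (-5.76), COX1 (-3.69), COX2 (-4.43), COX3 (-3.85), CYTB (-4.09), DKK3 (-4.55), ENSBTAG00000043567 (-3.49), ENSBTAG00000043570 (-4.13), EPAS1 (-1.90), FADD (-3.48), FAT3 (-5.14), ISL1 (-3.96), KDM6B (-2.41), LEF1 (-3.18), LGALS1 (-1.97), MSX1 (-4.85), ND1 (-4.74), ND3 (-4.72), ND4 (-4.73), ND5 (-4.86), ND6 (-5.07), TFAP2A (-3.92), TMCC3 (-4.91), TTC24 (-9.44), ZGLP1 (-7.47), ZP2 (-7.34) and ZP3 (-7.90).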

How the results depend on the processing

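In counts simulated for these libraries, 0 of 200 genes changed 2-fold and 130 of 200 changed 4-fold were recovered. The 169 calls became 170 with DESeq2 size factors, 2387 with library totals alone, 380 with DESeq2, 3983 with the likelihood-ratio test without TMM, 262 under the study's rule of both tests, 749 without a filter, 56 with CPM above 2 in all 9 libraries, 317 at FDR under 0.05 and 0 with the log10 total as a covariate, which separates the classes fully (edgeR, 186 at an unadjusted p under 0.05). Leaving out 1 library gave from 22 (complex 68) to 165 (complex 74) calls, with 60 without complex 66 and 80 without complex 65. Among settings added after seeing the data, 107 were called without the oocyte-abundant genes, 166 without the identifiers numbered among the mitochondrial genes and 0 without complexes 66 and 68 (edgeR, 1787 at an unadjusted p under 0.05), where 1 BCB negative library is left and is assumed to vary like the others. The cause of the other changes was not tested.

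In the other 10 complexes the count of 0 became 157 with DESeq2, 4 at FDR under 0.05 and from 0 to 5 without 1 library (3 without complex 6 or 87, 5 without 89). For the difference between the sets it became 29 with DESeq2, 6 at FDR under 0.05 and from 0 to 2 without 1 library (2 without complex 6 or 65). For the difference between cumulus cells and oocytes the 124 calls became 1596 with library totals alone, 286 at FDR under 0.05, 53 with the complex as a replicate block, and from 59 (complex 68) to 144 without 1 complex, with 77 without complex 66. The difference in log10 total was from 0.671 to 0.777 without 1 library, that in the mitochondrial share from -12.3 to -6.92 percentage points, and that in genes detected from 1227 to 2308; the last was -1308 after thinning to the smallest total.

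Fold changes that changed sign with the log10 total as a covariate were ACCSL (1.21), ALDOC (-0.13), BAK1 (-0.078), COL1A2 (0.51), EGFR (-0.85), ETV1 (0.53), FAS (0.11), FAT3 (2.02), KCNH2 (-0.45), LSS (-0.16), ND2 (0.054), RPL5 (0.20), RPL9 (0.34), SLC39A11 (-0.11), SMAD6 (0.22) and ZP2 (1.197). With library totals alone BAMBI (0.22), ETS2 (0.32), FAS (0.047), MAPK3 (0.24), RPL5 (0.10) and RPL9 (0.25) changed sign, and with the likelihood-ratio test without TMM BAMBI (0.23), ETS2 (0.32), FAS (0.044), MAPK3 (0.24), RPL5 (0.10) and RPL9 (0.25).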
